A study of Homo sapiens with 8 samples.

Results

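Replication-dependent histone genes are the short genes that supply histones to newly copied DNA, and 65 of them were examined among the 20163 coding genes on the 24 main chromosomes of GRCh37 (hg19). They were chosen by their symbols in the GENCODE release 44 annotation lifted to that build, which were H1-1 to H1-6 and those that start with H2AC, H2BC, H3C or H4C and a number. The set contained 6 genes of H1, 16 of H2A, 17 of H2B, 13 of H3 and 13 of H4. Chromosome 6 carried 30 of them between 25726790 and 26285866 (the larger cluster) and 21 between 27100574 and 27861203 (the second cluster). Chromosome 1 carried 10 between 149783928 and 149859515, and a pair, H2AC25 and H2BC26, at 228645574 and 228645804. H4C16 on chromosome 12 and H2BC12L on chromosome 21 stood alone.

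HIF-1β ChIP-seq was performed on 2 replicates each of 4 established human lines, which were PC-3 (prostate cancer), T47D (breast cancer), A549 (lung cancer) and HCT-116 (colorectal cancer). The cells of all 8 libraries had been kept at 0.5% oxygen for 16 h. No normoxic cells and no control library were analysed here, so peaks that depend on hypoxia cannot be told apart from others. A peak is an interval that the authors called in a single library, with a score that is used here to rank the peaks of that library, and a site is a merged region in which peaks of both replicates of a line overlapped by at least 1 bp.

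In dividing cells, H2A pairs with H2B and H3 pairs with H4 to form the core around which DNA is wound, while H1 binds the linker DNA between cores. The replication-dependent genes are transcribed mainly during S phase, most of them give messages without introns or a poly(A) tail, and many sit head to head and share the promoter DNA between them. HIF-1β is the constitutive partner of the HIF-α subunits, and the pair binds DNA at the core sequence RCGTG, which reads ACGTG or GCGTG on a strand and CACGT or CACGC on the opposite strand.

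The DNA at the centre of 4 sites that lay within 2 kb of a histone gene start is printed here, because the counts below rest on such sites. Each is the plus strand of GRCh37, with RCGTG on either strand in capitals. The central 200 bases were shortened where they ran into a non-coding part of an exon. The stretch at H3C7 was chr6:26250426-26250590, which was coding sequence of H3C7. The stretch at H2BC6 was chr6:26172147-26172286, next to the start of its gene record, that at H1-2 was chr6:26055368-26055567, beyond the 3′ end of the gene, and that at H4C16 was chr12:14923211-14923340, within the gene record.
H3C7: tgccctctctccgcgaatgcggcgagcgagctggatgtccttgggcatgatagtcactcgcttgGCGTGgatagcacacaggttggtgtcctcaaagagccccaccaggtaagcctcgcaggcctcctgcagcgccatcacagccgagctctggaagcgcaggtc
H2BC6: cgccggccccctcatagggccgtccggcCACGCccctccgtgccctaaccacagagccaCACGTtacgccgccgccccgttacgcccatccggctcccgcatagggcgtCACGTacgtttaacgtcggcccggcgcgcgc
H1-2: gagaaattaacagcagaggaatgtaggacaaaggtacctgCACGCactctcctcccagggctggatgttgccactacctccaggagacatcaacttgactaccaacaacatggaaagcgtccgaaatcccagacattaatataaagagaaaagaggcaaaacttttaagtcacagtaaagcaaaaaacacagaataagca
H4C16: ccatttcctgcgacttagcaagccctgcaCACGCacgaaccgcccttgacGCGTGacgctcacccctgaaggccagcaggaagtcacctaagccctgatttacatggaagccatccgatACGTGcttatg

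The capitals differed between these stretches. The printed part of H2BC6 and that of H4C16 had 3 copies of RCGTG each, and those of H3C7 and H1-2 had 1 each. Over the whole sites, and those of H3C1 with H4C1 and of HIST1H4B (an H4 gene described below), RCGTG occurred 6.92 times per kb at H4C16, 5.5 at H3C1 and H4C1, 5.27 at H2BC6, 3.48 at H3C7, 1.41 at HIST1H4B and 1.03 at H1-2. The median over all sites of a line was between 2.61 per kb in A549 cells and 3.76 per kb in HCT-116 cells, and between 96.3 and 99% of all sites had at least 1 copy. The sites of H1-2 and HIST1H4B therefore lay below the median of every line, and those of H4C16, H3C1 and H2BC6 lay above it.

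Whether HIF-1β binding reached the histone genes was counted first in each library, as genes with a peak within 2 kb of the start. Neither A549 library had a peak at any of the 65 genes, which allows a share of up to 5.52% (95% exact binomial interval), where 2.37% of all coding genes had a peak in replicate 2 and 1.8% in replicate 3. PC-3 replicate 1 also had 0 of 65, against 2% of all coding genes, and PC-3 replicate 2 had 1 gene, H4C16, which is 1.54% (interval 0.0389 to 8.28%) against 5.1%. The intervals in these lines contained the shares of all coding genes, so fewer peaks at histone genes than elsewhere were not detectable with 65 genes.

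T47D and HCT-116 cells had more. T47D replicate 1 had a peak at 8 genes, or 12.3% (interval 5.47 to 22.8%) against 9.54% of all coding genes, and replicate 2 at 7, or 10.8% (4.44 to 20.9%) against 8.79%. HCT-116 replicate 2 had a peak at 14 genes, or 21.5% (12.3 to 33.5%) against 12.6%, whereas replicate 3 had 3, or 4.62% (0.962 to 12.9%) against 6%. The interval also contained the share of all coding genes in each of these libraries, and the replicates of HCT-116 fell on opposite sides of it. HCT-116 replicate 2 had the longest list of the 8, with 3788 peaks on the main chromosomes against 1911 in replicate 3, and the part of list length in this difference was not tested. Intervals cover counting error only, and neighbouring histone genes share peaks, so the counts are of fewer independent regions than genes.

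**Figure D1:**
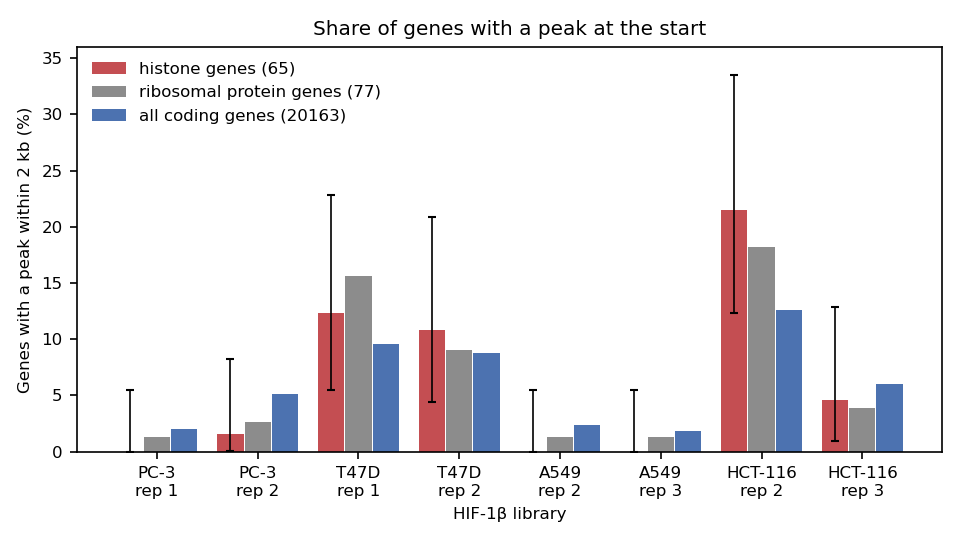
Percentage of genes with a peak within 2 kb of the start (vertical axis) in each of the 8 HIF-1β libraries (horizontal axis), for the 65 histone genes in red with 95% exact binomial intervals, for 77 genes of cytosolic ribosomal proteins in grey and for all 20163 coding genes in blue. The red bars were at 0 in PC-3 replicate 1 and both A549 libraries and highest in HCT-116 replicate 2 (21.5%), and every interval contained the blue bar of its library.

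The order of libraries by histone genes was also that of all coding genes, from 12.6% in HCT-116 replicate 2 to 1.8% in A549 replicate 3. Genes of ribosomal proteins, which are also short and highly transcribed, followed it as well. Of the 77, 15.6 and 9.09% had a peak in T47D replicates 1 and 2, 18.2 and 3.9% in HCT-116 replicates 2 and 3, 1.3 and 2.6% in PC-3 replicates 1 and 2, and 1.3% in each A549 library. The share of histone genes was the higher in T47D replicate 2 and in both HCT-116 libraries and the lower in the other 5, and no difference between these sets was tested.

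When a site of both replicates was required, 4 histone genes remained in T47D cells, which is 6.15% (interval 1.7 to 15%) against 6.42% of all coding genes. The 4 were H3C7, H2BC9, H3C1 and H4C1, which shared 2 sites. In HCT-116 cells 3 remained, H2BC6, H1-2 and H4C16, each at a site of its own, which is 4.62% (0.962 to 12.9%) against 5.59%. PC-3 and A549 cells had a site at 0 of 65 genes, against 1.92 and 1.48% of all coding genes. The share of histone genes with a site was thus 0.958 times that of all coding genes in T47D cells and 0.826 times in HCT-116 cells. Both ratios were above 1 under some other settings. With a peak of either replicate they were 1.42 and 1.65, with a window of 5 kb they were 1.71 and 1.23, and in HCT-116 replicate 2 alone the ratio was 1.71. Both were lower under others, at 0.784 and 0.609 with a window of 500 bp and 0.943 and 0.539 with the higher-scoring 50% of each list. With 2 libraries a line, an exact permutation test between lines cannot give a two-sided p below 0.333, and no test was made.

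No histone gene of the 65 had a site in more than 1 line. All 7 genes with a site in any line (10.8%, against 9.15% of all coding genes) had it in a single line. Of all coding genes, 2% had sites in 2 lines, 0.942% in 3 and 0.794% in 4, so few of 65 genes would be counted in more than 1 line at these shares, and the 7 genes lay at 5 regions. Counted over libraries, 43 histone genes had no peak in any list, 13 had a peak in 1, 7 in 2 and 2 in 3, the last being H2BC6 and H4C16. The 22 genes with a peak in any library were 33.8% of the set, against 19% of all coding genes, and 14 of them had one in HCT-116 replicate 2.

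Agreement between the replicates of a line was counted next, as a description. Of the 8 genes with a peak in T47D replicate 1 and the 7 in replicate 2, 4 had one in both, which is 50 and 57.1%, against 67 and 72.6% of all coding genes with a peak. Of the 14 genes in HCT-116 replicate 2, 3 had a peak in replicate 3, which is 21.4% against 44.1%, and all 3 of replicate 3 had one in replicate 2, against 92.7%. The gene of PC-3 replicate 2, H4C16, had no peak in replicate 1.

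H3C7 and H2BC9, for an H3 and an H2B, had the strongest site of the set in T47D cells. The peak scored 217 in replicate 1 and 206 in replicate 2, and 13.4 and 16.7% of the peaks in these lists scored higher. It covered the whole of H3C7 in both replicates and ended 809 and 647 bp short of the start of H2BC9, the start of which lies 979 bp from that of H3C7 in the opposite direction. The other 6 libraries had no peak within 2 kb of either gene. A site in a single line was found at 5.41% of all coding genes.

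H3C1 and H4C1, for an H3 and an H4, are read in the same direction and lay under a single broad peak in T47D cells. It scored 122 in replicate 1 and 74.5 in replicate 2, with 29.7 and 61.6% of the lists higher, and it covered both genes entirely in each. No other library had a peak within 2 kb of either start. The peak was thus near the middle of the list in replicate 2, and with the higher-scoring 50% of each list alone these 2 genes had no site.

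In HCT-116 cells the strongest was at H2BC6, for an H2B, with scores of 222 and 111, and 19 and 40.2% of the lists scored higher. T47D replicate 2 had a peak in the same place with a score of 50.5, near the bottom of its list (99% higher), and the other 5 libraries had none. These peaks covered the start of the gene record at position 26172287 of chromosome 6. They lay 11253 and 11202 bp before the start of the canonical transcript, at 26183989, in HCT-116 replicates 2 and 3, and 11211 bp before it in T47D replicate 2. The record includes a longer transcript with a distant start, so this site was at the long form and not beside the short histone transcript.

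H4C16, the H4 gene of chromosome 12, had a peak in 3 libraries of 2 lines. The scores were 108 and 78.1 in HCT-116 replicates 2 and 3 and 82.6 in PC-3 replicate 2, and 44.1, 60.5 and 54% of these lists were higher. All 3 peaks lay inside the gene record, 82, 150 and 108 bp downstream of the start. The 3 peaks are alike in place and rank, but in PC-3 cells replicate 1 had no peak within 1 Mb of the gene (the nearest was 1393434 bp away).

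H1-2, for a linker histone, had scores of 84.4 and 60.6 in HCT-116 replicates 2 and 3, with 57.9 and 80.8% of the lists higher, and no peak in the other 6 libraries. The peaks lay on the 3′ side, 757 and 836 bp from the start and 27 and 106 bp beyond the end of the gene. It was the only H1 gene with a peak in any library.

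**Figure D2:**
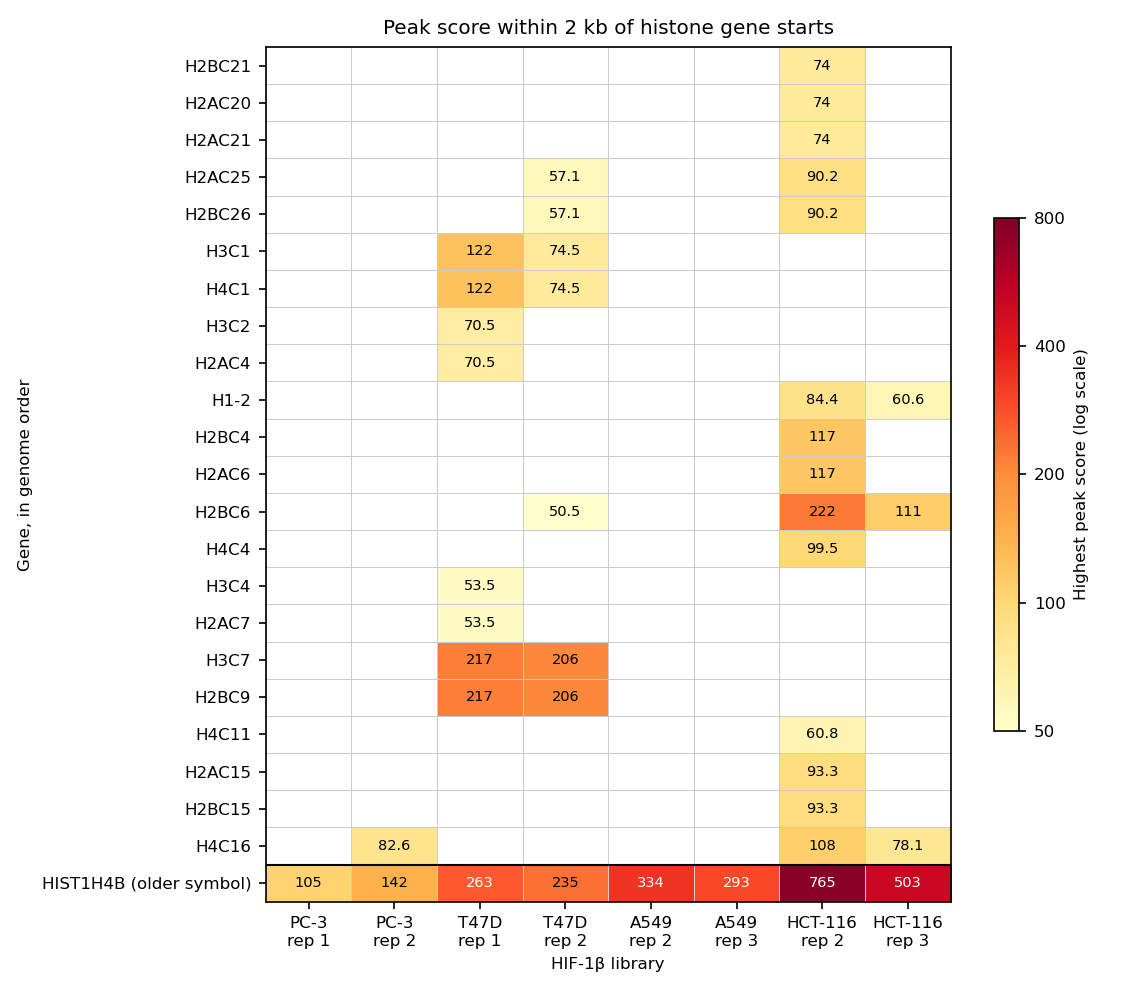
Highest score of a peak within 2 kb of the start (colour, log scale, and printed in the cell) for the 22 histone genes with a peak in any library and for HIST1H4B (rows) in the 8 libraries (columns), with blank cells where a list had no peak. Most filled cells are in the T47D libraries and HCT-116 replicate 2, the A549 columns are blank but for HIST1H4B, and HIST1H4B is the only row filled in all 8 libraries.

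The remaining genes had a peak in a single replicate of a line. In HCT-116 replicate 2 a peak that scored 117 covered the starts of H2BC4 and H2AC6, which lie 219 bp apart and are read in opposite directions. A peak of 93.3 covered those of H2AC15 and H2BC15, 170 bp apart. A peak of 99.5 covered H4C4, and another, of 60.8, covered H4C11. On chromosome 1 a peak of 74, 3019 bp wide, covered the starts of H2BC21, H2AC20 and H2AC21 and that of BOLA1, a neighbour that is no histone gene. All of these were in HCT-116 replicate 2 alone.

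H2AC25 and H2BC26, whose starts are 230 bp apart, had a peak of 90.2 in HCT-116 replicate 2 and a peak of 57.1 in T47D replicate 2. In T47D replicate 1 a peak of 70.5 covered H3C2 and reached to within 1040 bp of H2AC4. Another, of 53.5, covered the start of H2AC7, which it shares with the coding gene ENSG00000282988, and came within 1718 bp of H3C4. The lowest score in each list was close to 50, so several of these were near the limit of calling.

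In all, the 22 genes were reached by 13 separate regions, of which 7 had a peak in 1 library and 6 in more, 5 had a site, and 3 had peaks of 2 lines. A region reached 1 histone gene in 5 cases, 2 genes in 7 and 3 genes in 1. Every region had at least 1 RCGTG. Many histone genes have starts close enough to meet the same peak, and 12 pairs, with 23 genes between them, start within 1000 bp of each other in opposite directions, at a median of 242 bp (170 to 979), and 10 of the 12 join an H2A to an H2B gene. A peak in any library was found at 5 of the 12 pairs, and of the 5 pairs only H3C7 with H2BC9 had a site. Of single coding genes 19% had a peak, which is no like measure because a pair has 2 starts.

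By family, H3 genes had a peak in T47D replicate 1 (H3C1, H3C2, H3C4 and H3C7) and in replicate 2 (H3C1 and H3C7), and 0 of 13 had one in either HCT-116 library, where 12.6 and 6% of all coding genes did. H2A genes had a peak at 2 of 16 in T47D replicate 1, 1 in replicate 2 and 5 in HCT-116 replicate 2, with a site in no line. H2B genes had 1 and 3 of 17 in T47D replicates 1 and 2, and 5 and 1 in HCT-116 replicates 2 and 3. H4 genes had 1 of 13 in PC-3 replicate 2 and in each T47D library, and 3 and 1 in HCT-116 replicates 2 and 3. Against the shares of all coding genes given above, these are counts of few genes at shared regions, and no difference between families was tested.

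Genes with no peak in any list were found in every family: 5 of 6 for H1 (H1-1, H1-3, H1-4, H1-5 and H1-6), 9 of 16 for H2A, 11 of 17 for H2B, 9 of 13 for H3 and 9 of 13 for H4. Of the clusters, the larger one on chromosome 6 had a peak at 13 of 30 genes and a site at 6, and the second one at 3 of 21 and 0. On chromosome 1 the cluster of 10 had a peak at 3 and a site at 0. Of all coding genes, 19% had a peak in any library and 9.15% a site in any line, and no difference between clusters was tested.

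Part of the chromosome 1 cluster is repeated elsewhere in the genome. The share of 50-base words within 2 kb of the start that occur in exactly the same form elsewhere in GRCh37 was 100% for H4C14, H3C14, H3C15 and H4C15, 69.3% for H3C13, 68.6% for H2AC19 and 66.2% for H2BC18. None of these 7 had a peak. The median was 68.9% in this cluster, 1.52% in the larger and 5.49% in the second cluster of chromosome 6, and 3.97% over all 65 genes. How the authors treated reads with several places is not given in the sources used here, and the part of repeated sequence in the missing peaks was not tested. With these 7 genes left out, the sites in T47D and HCT-116 cells are at 4 and 3 of 58 genes, which follows from their having no peak.

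The annotation used here names 2 histone genes by older symbols, and they were added after their values had been seen. HIST1H4B, which RefSeq names H4C2 and which codes for an H4, lies at chr6:26027124-26027480 on the minus strand, inside the larger cluster. It had a peak in all 8 libraries and a site in all 4 lines, unlike any of the 65. The scores were 105 and 142 in PC-3 replicates 1 and 2, 263 and 235 in T47D replicates 1 and 2, 334 and 293 in A549 replicates 2 and 3, and 765 and 503 in HCT-116 replicates 2 and 3. In PC-3 cells 43.4 and 27.8% of the lists scored higher, in T47D cells 10.3 and 14.1%, in A549 cells 12 and 13.5%, and in HCT-116 cells 3.78 and 5.97%. Within its lists it thus ranked highest in HCT-116 and lowest in PC-3 cells. The lists differ in length, and no difference between lines was tested.

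The peaks at HIST1H4B were upstream of the gene and not over it. They ended between 1230 and 1572 bp before the start, and all 8 peaks had 825 bp in common. The merged region, 1416 bp wide with 2 copies, lay between genes, 1692 bp beyond the 3′ end of H3C2 and 2202 bp from its start. A second peak, of 59.6 and in T47D replicate 1 alone, covered HIST1H4B itself. Of all coding genes, 161, or 0.798%, had a peak in all 8 libraries. The other gene with an older symbol, HIST2H2AA3 (H2AC18), had no peak in any library, and 64.6% of its words were repeated. With both added, T47D had 5 of 67 genes with a site, HCT-116 had 4, and PC-3 and A549 had 1 each.

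**Figure D3:**
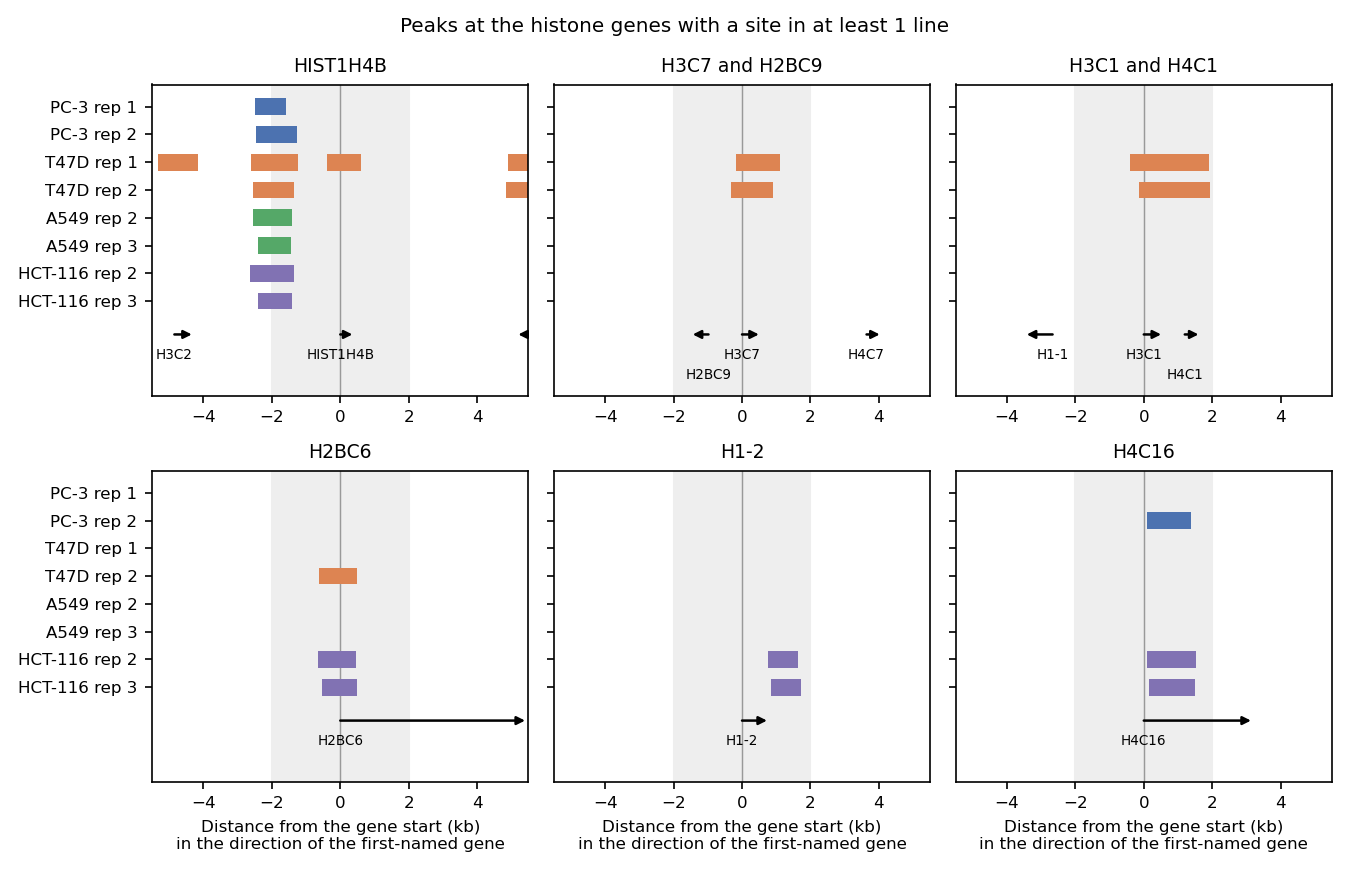
Peaks within 2 kb of a histone gene start (bars, coloured by line) in each library (rows) at the 6 sites, by distance in kb from the start of the first gene in each panel's title, in its own direction, with 2 kb on either side shaded and arrows for the histone genes. The upstream peaks at HIST1H4B, found in all 8 libraries, have their nearer ends 1230 to 1572 bp before the start. The peaks at H3C7 and H3C1 are in T47D libraries alone, and those at H1-2 lie beyond the gene.

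Of the members inside the window of 2 kb, those farthest from their site were H2BC9 in T47D cells, at 647 bp, and H1-2 in HCT-116 cells, at 757 bp, both well within it. Just outside it was H3C2, which lay 2359 bp from the nearest site in PC-3, 2240 bp in T47D, 2309 bp in A549 and 2202 bp in HCT-116 cells, in each case the site of HIST1H4B. H1-1 lay 2252 bp from a site in T47D cells, and H4C8 lay 2259 bp from a site in A549 cells. H2AC4 was 3878 bp from the nearest in PC-3 cells and 3721 bp in HCT-116 cells. A window of 5 kb took in these genes, and A549 cells then had a site at 3 histone genes (H3C2, H2AC4 and H4C8) and PC-3 cells at 2 (H3C2 and H2AC4).

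Distances to the nearest site were measured beyond the window as well. The median distance from a histone gene start to the nearest site was 143467 bp in PC-3, 180481 bp in T47D, 302090 bp in A549 and 301832 bp in HCT-116 cells. For all coding genes on chromosomes with a site it was 713944, 280274, 806339 and 331993 bp in the same order. A site lay within 100 kb of 36.9% of histone genes in PC-3 cells (13.5% of coding genes), 46.2% in T47D (27.6%), 40% in A549 (11.5%) and 47.7% in HCT-116 cells (25.4%). Within 1000 kb the share of histone genes was the lower in T47D (75.4 against 79.1%) and HCT-116 cells (60 against 75.7%). It was still the higher in PC-3 (73.8 against 58.3%) and A549 cells (73.8 against 56.1%). These genes lie together, so 1 site, such as that at HIST1H4B, counts for many of them.

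**Figure D4:**
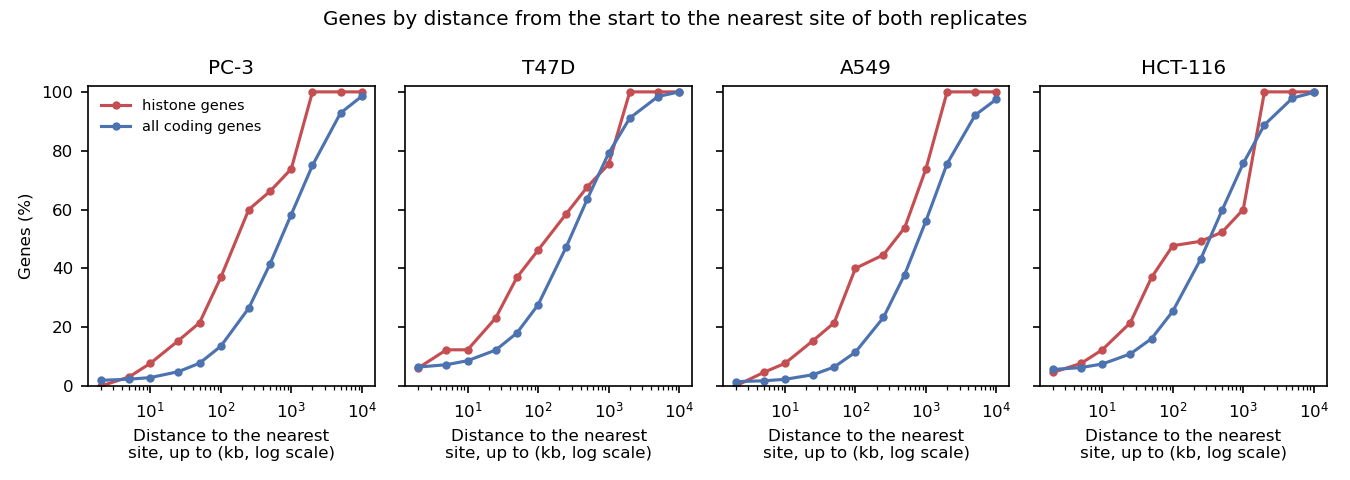
Percentage of genes (vertical axis) whose start lies within a given distance in kb of the nearest site of both replicates (horizontal axis, log scale), for histone genes in red and coding genes in blue, in each of the 4 lines. The curves start together at 2 kb, and at 100 kb the red curve is above the blue in every line (36.9 against 13.5% in PC-3 cells and 47.7 against 25.4% in HCT-116 cells). At 1000 kb the red curve is below the blue in T47D (75.4 against 79.1%) and HCT-116 cells (60 against 75.7%) and above it in PC-3 and A549 cells.

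Within the span of the larger chromosome 6 cluster, both PC-3 and both A549 libraries had a single peak, that of HIST1H4B. T47D replicates 1 and 2 had 8 and 5 peaks there, of which 4 and 3 were at starts of the 65 genes, and HCT-116 replicates 2 and 3 had 5 and 3, of which 4 and 2 were. The second cluster, 761 kb long, had 6 peaks in HCT-116 replicate 2, 2 of them at histone starts, 2 in T47D replicate 1 and 1 each in PC-3 replicate 2 and A549 replicate 2, none of which was at a histone start. The other 4 libraries had none.

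The peaks at histone genes were set beside the peaks at all coding starts of the same library. The median score of the peaks at histone starts was 96.1 in T47D replicate 1 and 65.8 in replicate 2, against 84.2 and 86 for all peaks at coding starts. It was 93.3 against 94.9 in HCT-116 replicate 2 (9 peaks) and 78.1 against 91.6 in replicate 3 (3 peaks). Of the 33 pairs of a histone gene and a library with a peak, the peak covered the start in 69.7%, against 79% for all coding genes, and the median distance from the centre of the peak to the start was 448 bp, against 248 bp.

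The promoters of histone genes differ in sequence from those of other genes, and RCGTG was searched on both strands from 250 bp before to 50 bp after the start. It was present in 33.8% of the 65 (interval 22.6 to 46.6%) and in 53.4% of all coding genes. Within the set it was present in 7 of the 22 genes with a peak (31.8%) and in 15 of the 43 without (34.9%), and the intervals of these shares, 13.9 to 54.9% and 21 to 50.9%, overlap. ACGTG and its complement overlap where CACGTG is read on both strands. In a window of 500 bp on either side it was present in 95.4 and 85.4%, so the share of histone genes was the lower in the narrow window and the higher in the wide one.

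Other elements known from histone promoters were common. CCAAT, on either strand, was found in 84.6% of the 65 against 35.8% of all coding genes, and TATAAA in 67.7% against 10.9%. By family, CCAAT was in 100% of H1, H2A and H3 genes and 88.2% of H2B genes, but in 38.5% of H4 genes, near the share of all coding genes. ATTTGCAT, the octamer that POU2F1 (OCT1) binds, was found in 38.5% against 1.66%, with 75% of H2A, 70.6% of H2B, 7.69% of H3 and no H1 or H4 gene. These matches describe the letters of the reference and not the binding of a factor.

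Genes that make or regulate the histone supply were examined beside the histone genes. Of 28, 3 had a site in any line (10.7%, against 9.15% of all coding genes). By line it was 2 in PC-3 (7.14 against 1.92%), 3 in T47D (10.7 against 6.42%), 0 in A549 (0 against 1.48%) and 2 in HCT-116 cells (7.14 against 5.59%). POU2F1 had one in PC-3, T47D and HCT-116 cells, with scores of 187 and 235, 381 and 515, and 1230 and 386, and A549 replicate 2 had a peak of 87. SLBP, which binds the stem-loop at the end of histone messages, had sites in the same 3 lines, with 65 and 86.6, 167 and 142, and 194 and 91.9. CPSF3, the nuclease that cuts that end, had a site in T47D cells (50.4 and 137). NPAT, the coactivator of histone transcription in S phase, had a peak of 61 in HCT-116 replicate 3 alone.

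Of 16 genes listed here as replication-independent histone genes and found in the annotation, 3 had a site in any line (18.8%, against 9.15% of all coding genes), among them H3-3B and H2AZ2. H3-3B, for H3.3, had scores of 210 and 231 in T47D and of 186 and 57.8 in HCT-116 cells and a peak of 110 in PC-3 replicate 2. H2AZ2, for an H2A.Z, had 71.8 and 59.2 in T47D cells. Of the 14 other coding genes that start within the clusters, 2 had a site in any line (14.3%, against the same 9.15%). These 14 include the histone genes HIST1H4B and HIST2H2AA3. HIST1H4B had a site in 4 lines and HFE, a regulator of iron uptake, in T47D cells (56.2 and 75). The remaining 12 had none.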

How the data were processed

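HIF-1β ChIP-seq peak lists of 4 cell lines were used, 2 replicates each. Per the labels, reads were trimmed with Trim Galore 0.3.3 and aligned with BWA 0.7.5a-r405 to GRCh37, and the authors called peaks with MACS (version not given in the sources used here). The deposited lists hold intervals with a score for each peak and no reads, so the depth is unknown. What the score measures is not explained in them, and its lowest value was close to 50 in every list, so scores were compared by rank within a library. The study's methods also require T-PIC, another caller, which cannot be seen in the lists.

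A gene was counted when a peak met the 2 kb on either side of its start (5′ end of the gene record). The members and lists were chosen with earlier results of these data known. Genes named were those with sites, those nearest the window's edge and list genes with sites in the most lines. Others with peaks, and HIST1H4B, were named after their values were seen. H2BC7, H2BC8 and H4C6 were not analysed here, nor were H2AW and H2BU1 of the replication-independent histone genes. Another gene of that list and the sequence of 2 sites are not reported here. No p-value was computed. Counting was tested on simulated data, in which all 200 genes made per library were found, and bedtools gave the same genes in all 8 libraries. Nothing says that replicates came from separate cultures. Sequences came from the GRCh37 genome. Python 3.11.15, NumPy 2.4.6, SciPy 1.17.1, pysam 0.24.0, numba 0.67.0, Matplotlib 3.10.9 and bedtools 2.31.1 were used.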

Additional observations from a re-analysis of the deposited data

How the results depend on the processing

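The number of histone genes with a site and its ratio to the share of all coding genes depended on the window and on the need for both replicates. With 5 kb on either side, 2 genes had a site in PC-3, 8 in T47D, 3 in A549 and 5 in HCT-116 cells. The ratio was then 1.33 in PC-3, 1.71 in T47D and 2.62 in A549 cells. H3C2 and H2AC4 were among these genes in every line and met the same site, that of HIST1H4B. They were the only genes in PC-3 cells, so the ratio there rests on 1 site, and H4C8 was the only other gene in A549 cells. With 500 bp the ratio was 0.784 in T47D cells. With a peak of either replicate, the number was 1 in PC-3, 11 in T47D and 14 in HCT-116 cells, and the ratio 0.294, 1.42 and 1.65. With the higher-scoring 50% of each list, 2 genes were left in T47D and 1 in HCT-116 cells. With starts within 2 kb of each other counted once (43 histone regions, 18046 in all), the number in T47D cells was 2 and the ratio 0.786, and the ratio in HCT-116 cells was 1.33. Leaving out each replicate gave 0 to 1 gene in PC-3 (ratio 0 to 0.301), 7 to 8 in T47D (1.22 to 1.29) and 3 to 14 in HCT-116 cells (0.769 to 1.71), where the 14 came from replicate 2 alone. With 500 bp on either side, 95.4% of the histone genes had RCGTG. The causes were not tested. Any annotated transcript start, the centre of the peak in the window and 50% overlap of the replicates left the numbers of histone genes with a site as they were in all 4 lines. With any annotated transcript start the share of all coding genes rose from 6.42 to 7.7% in T47D and from 5.59 to 6.84% in HCT-116 cells, so the ratio was lower in both.

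Chosen after seeing the data were the canonical transcript start, under which H2BC6 had no site and HCT-116 cells had 2 genes and a ratio of 0.535 (T47D 4 genes), the set without 7 genes of mostly repeated sequence, and the set with 2 genes under older symbols, which gave 1 gene in PC-3, 5 in T47D, 1 in A549 and 4 in HCT-116 cells. No paired analysis was possible because no result came from a test. PC-3 and T47D share replicate numbers 1 and 2, and A549 and HCT-116 share 2 and 3. Without reads or a control library, a peak that was not called cannot be told from binding below the limit of calling.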
